A study of Homo sapiens with 4 samples.

Results

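The messenger RNA levels of 10 genes were followed in leukemia cells treated with periplocin. The genes were the FOXO transcription factors FOXO1, FOXO3 and FOXO4, the repressor BCL6, and 6 genes that FOXO factors are known to act on or that feed back on the same pathway, namely TP53INP1, TP53INP2, PIK3IP1, TXNIP, IRS2 and SESN3. They are 10 of the 20348 genes in the count table and were taken by symbol, as a readout of low PI3K-Akt signalling, with their response to periplocin already known, so the values below describe them and no test was made. RNA was sequenced from 4 cultures, K562 with DMSO, K562 with periplocin, THP-1 with DMSO and THP-1 with periplocin, each for 72 h and with periplocin at 100 nM. K562 was established from a chronic myeloid leukemia, THP-1 from an acute monocytic leukemia, and each line stands for 1 patient's disease. There was 1 library per condition, so no value has a replicate error. Periplocin is a cardiac glycoside from the root bark of Periploca.

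When growth factor receptors signal through PI3K, the kinase Akt phosphorylates FOXO proteins, which are then held in the cytoplasm. When that signal is low, FOXO proteins stay in the nucleus and act on genes of cell cycle exit, autophagy, metabolism and receptor signalling. BCL6, best known from germinal center B cells, is one of these genes and itself encodes a repressor. FOXO activity is set mostly at the protein level, which RNA levels do not measure. From its RNA sequencing, the paper reports enrichment of the PI3K-Akt pathway among genes that differed in K562. By western blot, it reports unchanged Akt phosphorylation in both lines at the same dose and time. The label of low PI3K-Akt signalling thus names how the genes were picked, not a state measured in these cultures.

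The motif that FOXO proteins bind is the reason for showing part of these promoters. Windows of 300 bases, from 250 bases before to 50 bases after the annotated start, were found in the RefSeq promoter set (GRCh38.p14) for 9 of the 10 genes, with TP53INP1 the gene without one. The letters GTAAACA, searched on both strands, stood in 3.42% of all 35093 windows and in 3 of the 16 windows of these genes. By gene, 3 of the 9 had a match, as did 4.19% of all 27305 genes with a window. TXNIP and PIK3IP1 had 2 windows each, with the match in 1 of them, and FOXO4 had 1 window. The 3 matches are given with 11 bases on each side, the capitals marking the match, in the direction of transcription. The PIK3IP1 match is on the other strand and so reads as its reverse complement.
TXNIP (chr1:145996686-145996714, minus strand): tcgggctcctgGTAAACAaggaccgggca
FOXO4 (chrX:71095863-71095891, plus strand): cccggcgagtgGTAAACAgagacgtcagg
PIK3IP1 (chr22:31292455-31292483, minus strand): taaagagaggcTGTTTACcagaacagcat
The TXNIP match lay before the RefSeq start, with its first base at -124, whereas the FOXO4 and PIK3IP1 matches began after it, at 24 and 17. Gene positions given below come from GENCODE and can differ from these starts. The FOXO4 gene there begins at 71096197, so the FOXO4 match lies before that position. TXNIP was also the one of these 3 that held the longer letters GTAAACAA, found in 0.955% of all windows. IRS2 held the insulin response letters CAAAACAA on the reverse strand at -41, which stood in 1.68% of all windows.

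The TXNIP window with the FOXO letters, 1 of 2 for that gene, also held the paired letters of a carbohydrate response element. The glucose sensors MondoA and ChREBP bind such elements with their partner Mlx. The searched letters, CACGNG repeated after a gap of 5 bases and read on both strands, stood in 20 of all windows, or 0.0570%. The stretch below runs from base -160 to base -51 and shows in capitals the FOXO letters and, nearer the start, the carbohydrate response letters.
TXNIP (chr1:145996630-145996739, minus strand): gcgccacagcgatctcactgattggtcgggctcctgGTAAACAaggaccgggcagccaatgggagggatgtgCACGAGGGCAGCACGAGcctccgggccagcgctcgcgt
ARRDC4, a paralog of TXNIP that MondoA is also known to act on, held no match to these letters in its window and a single CACGTG, the E-box letters, at -210.

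BCL6 is known to bind its own gene, at letters that STAT factors also use. The letters TTCNNNGAA stood 4 times in a BCL6 window, beginning at -28, -5, 11 and 37. Windows with at least 1 match made up 7.66% of all windows, and those with at least 4 matches numbered 7. The form TTCTTAGAA, in 0.336% of all windows, occurred as a pair across the RefSeq start of that window, shown in capitals.
BCL6 (chr3:187745446-187745475, minus strand): gaTTCTTAGAActggggTTCTTAGAAgtgg
TP53INP2 and SESN3 each held 1 match to TTCNNNGAA, beginning at -199 and -158. These matches describe letters only, and no binding was measured.

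**Figure D1:**
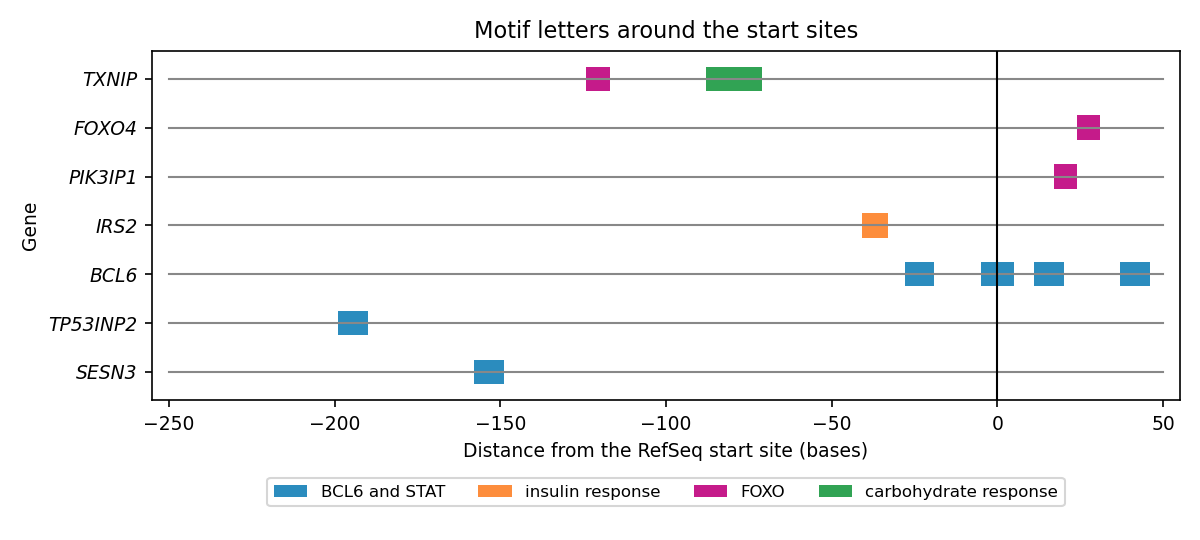
Positions of the searched letters from 250 bases before to 50 bases after the RefSeq start site (vertical line at 0), 1 line per gene and 1 colored block per match. Windows of the same gene share 1 line. FOXO1 and FOXO3, which had no match to the letters drawn, and TP53INP1, which had no window, are left out. The TXNIP line carries a FOXO match and a carbohydrate response match before the start, and the BCL6 line carries 4 matches to the BCL6 and STAT letters around it.

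Library totals were between 16381149 and 20622694 expected counts, and levels are given as CPM, counts scaled to a common library size, after TMM scaling over the 4 libraries. The cell line labels were checked on 12 markers each. The summed level of K562 markers, such as GATA1, KLF1 and the embryonic and fetal globins, was 3030 CPM in K562 DMSO, 11259 CPM in K562 periplocin, and 285 and 270 CPM in the THP-1 libraries. In K562, 10 of these 12 markers were at least 2-fold higher with periplocin. The monocytic markers summed to 2800 and 2619 CPM in THP-1 without and with periplocin and to 94.5 and 91.1 CPM in K562. In THP-1, 3 of those 12 were at least 2-fold higher, ITGAM, CD14 and FCGR1A, and 2 were lower, MPO and CTSG. Of 10 markers of B, T, stromal and endothelial cells, 1 was above 1 CPM in THP-1, PECAM1, which monocytes also use, and 5 were at 0 in each THP-1 library. Their sum was 408 CPM in untreated and 636 CPM in treated THP-1. In K562, 3 of the 10 reached 1 CPM with DMSO and 4 with periplocin, 2 were at 0 in each library, and the sum was 13.9 and 12.9 CPM. Mitochondrially encoded genes took 5.62% of counts in K562 DMSO and 2.07% in K562 periplocin, against 5.24% and 3.92% in THP-1. At the same dose and time, the paper reports more apoptotic cells and fewer cells in S phase with periplocin in both lines. These shifts accompany every K562 and THP-1 result below, and their part in them was not tested.

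The question here was how these genes differed between periplocin and DMSO in each line. Among the 10 genes, 4 were at least 2-fold higher with periplocin in K562, FOXO4, BCL6, TP53INP1 and TP53INP2, and the same 4 plus TXNIP were at least 2-fold higher in THP-1. None was at least 2-fold lower in either line. All 10 had a mean of at least 1 CPM over each pair of libraries, the filter used for all counts of genes. Over all genes past that filter, 8.86% of 11814 genes were at least 2-fold higher in K562 and 8.06% of 12393 genes in THP-1, while 11.4% and 10.7% were at least 2-fold lower, so that 20.3% and 18.8% were past 2-fold either way. Since the genes were picked on this contrast, nothing is read from the counts beside those shares. The median log2 ratio of periplocin over DMSO was 0.48 in K562 and 0.96 in THP-1 for the 10 genes, and -0.01 and -0.03 for all genes.

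Across the lines, 7 of the 10 genes were higher with periplocin in both, and TXNIP, IRS2 and SESN3 had ratios of opposite sign. Of the 10781 genes past the filter in both lines, 29.5% were higher in both by any size and 38.3% had opposite signs. The 4 genes at least 2-fold higher in both lines stood beside 1.69% of all genes, and 2.71% were at least 2-fold lower in both. When these 10781 genes were ranked by the smaller of their 2 log2 ratios, BCL6 was at rank 12, TP53INP2 at 22, TP53INP1 at 84 and FOXO4 at 157. PIK3IP1, FOXO1 and FOXO3 followed at 648, 934 and 1440.

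**Figure D2:**
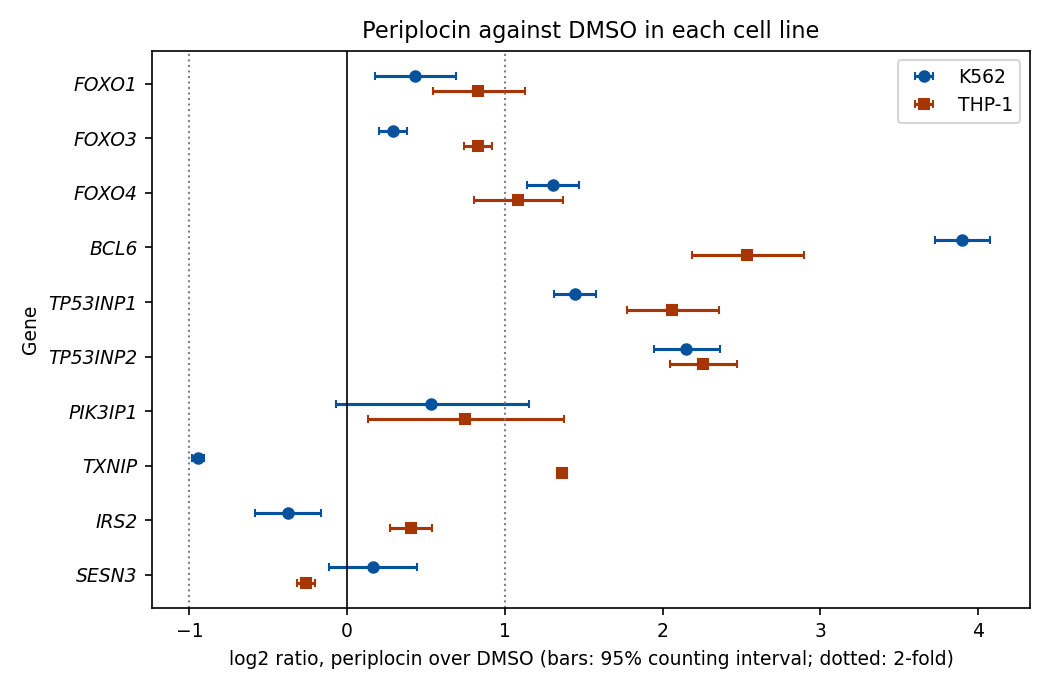
Log2 ratio of periplocin over DMSO for each gene in K562 (circles) and THP-1 (squares), with bars for the 95% counting interval and dotted lines at 2-fold. BCL6 lies farthest right in both lines, and TXNIP and IRS2 lie on opposite sides of 0 in the 2 lines.

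**Figure D3:**
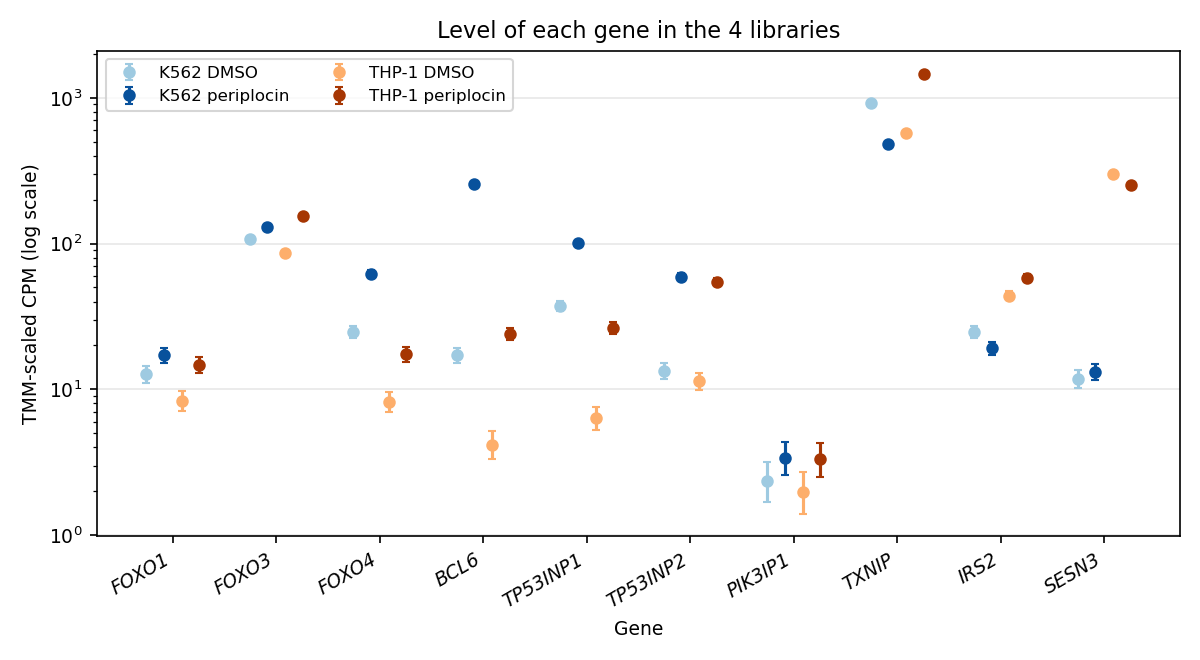
TMM-scaled CPM of each gene in the 4 libraries on a log axis, with bars for the 95% counting interval. Each periplocin point lies above its DMSO point for FOXO1, FOXO3, FOXO4, BCL6, TP53INP1, TP53INP2 and PIK3IP1, and SESN3 is at 11.8 and 13.2 CPM in K562 and between 251.7 and 301.6 CPM in THP-1. Levels of different genes on this axis are not comparable, since transcripts differ in length.

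The FOXO genes encode the transcription factors themselves. FOXO4, on chromosome X from 71096197 to 71103535, had the largest log2 ratio of the 3 in each line. K562 had 425 counts with DMSO and 1070 with periplocin, and THP-1 had 162 and 294, or 24.9, 61.6, 8.20 and 17.4 CPM. FOXO4 was thus highest in the periplocin-treated K562 library and lowest in the untreated THP-1 library, and each neighbouring pair in that order was separated by counting error. The level was 2.47-fold higher with periplocin in K562 (log2 ratio 1.31, 95% counting interval 1.14 to 1.47) and 2.12-fold higher in THP-1 (1.08, 0.80 to 1.37). These intervals of a ratio are exact conditional binomial intervals that cover counting error only. The difference between the responses had an interval of -0.54 to 0.10 in log2, which included 0, and intervals of such differences are normal approximations from the counts.

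FOXO1, on chromosome 13 from 40469953 to 40666597, was counted 216, 297, 164 and 250 times in K562 DMSO, K562 periplocin, THP-1 DMSO and THP-1 periplocin, at 12.7, 17.1, 8.30 and 14.8 CPM. It was 1.35-fold higher with periplocin in K562 (log2 ratio 0.43, 0.18 to 0.69) and 1.78-fold higher in THP-1 (0.83, 0.54 to 1.13). The treated libraries held the higher levels in each line but were not separated from each other by counting error. FOXO1 shares 269 bases of exon with LINC00598 on the same strand.

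FOXO3, on chromosome 6 from 108559835 to 108684774, had 1823, 2274, 1714 and 2613 counts in the same order, or 106.8, 130.8, 86.8 and 154.4 CPM. Its ratio was 1.23-fold in K562 (log2 ratio 0.29, 0.20 to 0.38) and 1.78-fold in THP-1 (0.83, 0.74 to 0.92), a difference of 0.54 in log2 between the lines (0.41 to 0.66). FOXO3B, a near-identical copy that is counted apart, went the other way in K562, with 197 counts in DMSO and 106 with periplocin (log2 ratio -0.92, -1.27 to -0.57). In THP-1 FOXO3B had 60 and 38 counts, with an interval that included 0. Reads of FOXO3 and FOXO3B could be divided between them by the counting, so their sum is the safer value, and it was 0.21 in K562 and 0.80 in THP-1.

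Scaled per kilobase of the principal transcript, FOXO3 held 59.9% of the summed FOXO1, FOXO3 and FOXO4 level in K562 DMSO and FOXO1 9.08%, the rest being FOXO4. With periplocin the K562 shares were 45.2% for FOXO3, 47.3% for FOXO4 and 7.55% for FOXO1, so that FOXO4 and FOXO3 were close per kilobase. All these shares take FOXO3 without FOXO3B and have no interval, so the order of FOXO3 and FOXO4 there is not settled. In THP-1 FOXO3 held 75.0% without and 72.9% with periplocin, and FOXO4 15.8% and 18.2%. The counts of the 3 genes together had a log2 ratio of 0.54 in K562 (0.46 to 0.61) and 0.85 in THP-1 (0.77 to 0.93). The fourth family member, FOXO6, had 3 and 30 counts in K562 and 1 and 6 in THP-1, under the filter in both, and its K562 log2 ratio of 3.30 had an interval of 1.61 to 5.65.

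BCL6 encodes a zinc finger repressor that keeps germinal center B cells from differentiating. The gene lies on chromosome 3 from 187721377 to 187745727 on the minus strand in GENCODE. Its paired letters, shown above, lie at a RefSeq start inside that span. K562 had 292 counts with DMSO and 4440 with periplocin, and THP-1 had 82 and 407, at 17.1, 255, 4.15 and 24.1 CPM. The periplocin-treated K562 library stood far above the other 3, and the treated THP-1 library was above untreated K562 by a log2 ratio of 0.49 (0.27 to 0.71). BCL6 was 14.9-fold higher with periplocin in K562 (log2 ratio 3.90, 3.73 to 4.08) and 5.80-fold higher in THP-1 (2.54, 2.19 to 2.90). The log2 response in THP-1 was smaller than that in K562 by 1.37, with a difference of -1.37 (-1.75 to -0.98). BCL6 shares 171 and 318 bases of exon with a pair of antisense genes that have no row in the count table. PIK3IP1, IRS2 and SESN3 likewise share 36, 115 and 93 bases with antisense genes that have no row. Whether the counting used strand is not given in the sources used here.

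The other side of BCL6 is the set of genes and partners around it. Its paralog BCL6B had 121 and 31 counts in K562, 3.98-fold lower with periplocin (log2 ratio -1.99, -2.61 to -1.41), and 2 and 1 counts in THP-1. None of the 8 corepressor genes was past 2-fold in either line. The one nearest to that limit was TBL1X, with log2 ratios of -0.95 in K562 and 0.46 in THP-1, followed by BCOR, which bridges BCL6 to polycomb proteins, at -0.65 and 0.18. NCOR1 and HDAC3, which act in a deacetylase complex, had log2 ratios of -0.09 and 0.19 for K562, and of 0.12 and 0.12 for THP-1. BCORL1 was at 0.44 and 0.29, CTBP1 at -0.36 and -0.32, and MTA3 at -0.46 and -0.48.

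Of 18 genes that BCL6 is known to repress in lymphoid cells, 15 passed the filter in K562, where 1 was at least 2-fold higher and 4 were at least 2-fold lower. THP-1 had 16 past the filter, of which 6 were higher and 2 lower. The list's median log2 ratio was -0.61 for K562 and 0.20 for THP-1. BCL2, the survival gene, was lower in both lines, with 659 and 128 counts in K562 (log2 ratio -2.39) and 7520 and 1756 in THP-1 (-1.88). CD69, a lymphocyte activation receptor, had 1719 and 257 counts in K562 (-2.77) and only 3 and 4 in THP-1. ID2, an inhibitor of helix-loop-helix factors, went against the K562 majority, with 102 and 1327 counts (3.67), and stood at 0.21 in THP-1. PRDM1, whose product drives plasma cell and myeloid differentiation, was 2.39-fold higher in THP-1 (1.25) and within counting error in K562 (-0.21, -0.74 to 0.32). Of the others past 2-fold in THP-1, the cytokine signal inhibitor SOCS2 was lower, with 159 and 18 counts, and CDKN1A, CD44, IRF4, CCL3 and CD80 were higher. CCL3 had 1 and 72 counts, CD80 had 0 and 39, and IRF4 had 13 and 29. Each of these was below 1 CPM in untreated THP-1 and passed the filter only through the treated library. Passing the filter thus already made each count as higher. In K562 CDKN1A and CD44 were lower, and CD44 passed the filter there only through the untreated library.

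The genes whose pattern over the 4 libraries lay nearest to that of BCL6 were PDK4, KYAT1 and SERPINI1, at distances between 1.29 and 1.53 in log2 units over 9784 genes. PDK4, a kinase that turns off pyruvate dehydrogenase and a FOXO-linked gene, had 427 and 2264 counts in K562 (log2 ratio 2.38, 2.23 to 2.53) and 129 and 406 in THP-1 (1.88, 1.59 to 2.17). KYAT1 had 141 and 559 counts in K562 and 17 and 60 in THP-1, and SERPINI1 had log2 ratios of 2.70 and 3.93. With 4 libraries, such likeness describes these cultures only.

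TP53INP1 and TP53INP2 encode related scaffold proteins of autophagy, and TP53INP1 also serves as a p53 cofactor. TP53INP1, on chromosome 8 from 94925972 to 94949411, had 635, 1761, 125 and 447 counts in K562 DMSO, K562 periplocin, THP-1 DMSO and THP-1 periplocin, or 37.2, 101.3, 6.33 and 26.4 CPM. Both K562 libraries lay above both THP-1 libraries, and the untreated K562 level was 5.88-fold that of untreated THP-1. TP53INP1 was 2.72-fold higher with periplocin in K562 (log2 ratio 1.45, 1.31 to 1.58) and 4.18-fold higher in THP-1 (2.06, 1.77 to 2.36).

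TP53INP2, on chromosome 20 from 34704290 to 34713439, had 228, 1032, 225 and 922 counts, or 13.4, 59.4, 11.4 and 54.5 CPM. Its levels formed 2 pairs, the untreated libraries and the treated ones, and within each pair the lines were not separated by counting error. It was 4.44-fold higher with periplocin in K562 (log2 ratio 2.15, 1.94 to 2.36) and 4.79-fold higher in THP-1 (2.26, 2.05 to 2.47). The difference between the responses was 0.11, with an interval of -0.19 to 0.40.

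The proteins that TP53INP1 and TP53INP2 bind include the GABARAP family of autophagosome proteins. GABARAP, GABARAPL1 and GABARAPL2 summed to 2910 and 6235 counts in K562 (log2 ratio 1.07, 1.01 to 1.14) and to 1818 and 3062 in THP-1 (0.98, 0.89 to 1.06). Of the 11 genes listed as TP53INP partners, 9 passed the filter in K562 with 2 at least 2-fold higher. In THP-1, 10 passed with 4 at least 2-fold higher, and none was 2-fold lower in either line. The list's median log2 ratio was -0.15 in K562, below 0, and 0.83 in THP-1. SQSTM1, the autophagy receptor p62, had log2 ratios of 0.61 in K562 and 1.67 in THP-1. HIPK2, a p53 kinase, differed in sign, at -0.81 and 1.65. MAP1LC3A, which encodes an LC3 protein, had 45 and 107 counts in THP-1 (1.47).

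PIK3IP1, IRS2 and SESN3 act on the PI3K-Akt-mTOR pathway itself. PIK3IP1, which binds and inhibits the PI3K catalytic subunit, lies on chromosome 22 from 31281593 to 31292534 and was the least counted of the 10 genes. It had 40 and 59 counts in K562 and 39 and 56 in THP-1, or 2.34, 3.40, 1.97 and 3.31 CPM. Its log2 ratio was 0.53 in K562, with an interval of -0.07 to 1.15, so a difference was not detectable at this depth, and 0.75 in THP-1 (0.13 to 1.37).

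IRS2, the adaptor that links the insulin and IGF1 receptors to PI3K and that FOXO factors are known to induce when insulin is low, lies on chromosome 13 from 109752698 to 109786568. Its counts were 423 and 332 in K562, against 869 and 984 in THP-1, at 24.8, 19.1, 44.0 and 58.2 CPM. Both THP-1 libraries lay above both K562 libraries. IRS2 was lower with periplocin in K562 (log2 ratio -0.38, -0.59 to -0.17) and 1.32-fold higher in THP-1 (0.40, 0.27 to 0.54). IRS1, its paralog, was lower in both lines, at -0.37 (-0.60 to -0.14) in K562 and -0.70 (-1.24 to -0.16) in THP-1, and IRS4 had no counts in any library.

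SESN3, a sestrin that restrains mTORC1 when amino acids or growth factors are short, lies on chromosome 11 from 95165513 to 95232541. It had 201 and 229 counts in K562 and 5958 and 4258 in THP-1, at 11.8, 13.2, 301.6 and 251.7 CPM. The untreated THP-1 level was 25.6-fold the untreated K562 level, the largest difference between lines among the 10 genes, and the treatment contrast was small beside it. With periplocin SESN3 was 1.20-fold lower in THP-1 (log2 ratio -0.26, -0.32 to -0.20), and in K562 its ratio of 0.16 had an interval of -0.12 to 0.44. SESN2, the stress-induced sestrin, had 6525 counts in K562 with DMSO and 1556 with periplocin (log2 ratio -2.10, -2.17 to -2.02), while THP-1 had 621 and 748 (0.49, 0.34 to 0.65). SESN1 stood at -0.32 and 0.23.

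TXNIP encodes an arrestin-like protein that binds thioredoxin and lowers glucose uptake. It lies on chromosome 1 from 145992435 to 145996600, and was counted 15786 times in untreated and 8354 times in treated K562, against 11272 and 24790 times in untreated and treated THP-1. At 925, 481, 571 and 1465 CPM it was the most abundant of the 10 genes in every library, also per kilobase. The order of the libraries was reversed between lines, with periplocin lowest in K562 and highest in THP-1. TXNIP was 1.92-fold lower with periplocin in K562 (log2 ratio -0.94, -0.98 to -0.91) and 2.57-fold higher in THP-1 (1.36, 1.33 to 1.39). The difference between the responses was 2.31 in log2 (2.26 to 2.36), and the spread between cultures behind it is unknown.

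ARRDC4, which has no match to the carbohydrate response letters in its window, showed the same split. It had 2983 and 1109 counts in K562 (log2 ratio -1.45, -1.55 to -1.35) and 587 and 1403 in THP-1 (1.48, 1.34 to 1.62). In both lines together, 1.32% of the 10781 genes were at least 2-fold different in opposite directions, ARRDC4 among them. The other alpha-arrestins did not share the split. ARRDC3 was higher with periplocin in K562 (0.44, 0.30 to 0.57) and 6.29-fold lower in THP-1, with 1279 and 174 counts (-2.65, -2.89 to -2.42). ARRDC1 was lower in both, at -0.89 and -0.69, and ARRDC2 higher in both, at 0.48 and 0.21. ARRDC5 had 0 counts in K562 and 6 in each THP-1 library.

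Of 9 genes around MondoA, Mlx and thioredoxin, none was at least 2-fold higher and 2 were lower in K562, ARRDC4 and the hexokinase HK2 at -1.13. In THP-1, 2 were higher and 1 was lower. MLXIPL, which encodes ChREBP, had 497 and 377 counts in K562 (log2 ratio -0.43) and 58 and 272 in THP-1 (2.45), and HK2 was lower in THP-1 as well (-1.07). MLXIP, which encodes MondoA, was higher in both lines, with 3243 and 6412 counts in K562 (0.96) and 2008 and 2289 in THP-1 (0.41). The pattern of TXNIP over the 4 libraries lay nearest to IDS, a lysosomal sulfatase, at a distance of 0.133 in log2 units, and then to ENC1 and FERMT3, whereas ARRDC4 was at place 4468 of 9784 genes, since its untreated THP-1 level was much lower than its untreated K562 level.

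**Figure D4:**
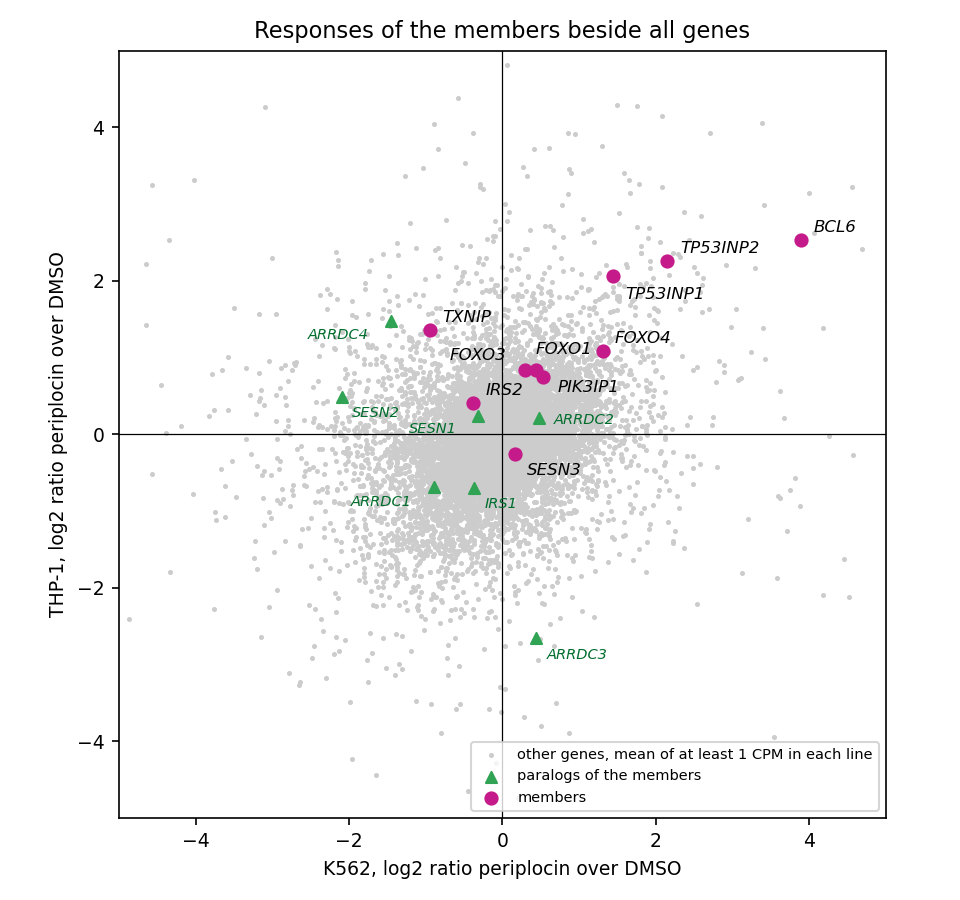
Log2 ratio of periplocin over DMSO in K562 (x axis) and THP-1 (y axis), with the 10 genes in magenta, paralogs past the filter in both lines as green triangles and other genes past it in grey, 10 of which fall outside the axes. BCL6, TP53INP1, TP53INP2 and FOXO4 lie to the upper right, and TXNIP and ARRDC4 to the upper left.

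The other genes of the pathway were described from lists of 185 genes beside the 10. Of these, 159 passed the filter in K562, where 20 (12.6%) were at least 2-fold higher and 18 (11.3%) at least 2-fold lower, with a median log2 ratio of -0.02. In THP-1, 166 passed, and 27 (16.3%) were higher and 10 (6.02%) lower, with a median of 0.25.

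FOXO-linked genes of cell cycle exit and quiescence numbered 14. In K562, 13 passed the filter, with 3 at least 2-fold higher and 1 lower and a median log2 ratio of 0.58, and in THP-1 all 14 passed, with 6 higher and 1 lower and a median of 0.69. YPEL3, a growth suppressor, had 149 and 527 counts in K562 (1.80, 1.53 to 2.07) and 180 and 601 in THP-1, 3.90-fold higher. KLHL24, an E3 ligase adaptor, was at 1.21 and 1.74, and GADD45B, a stress sensor, at 2.34 and 1.02. BTG1, an antiproliferative factor, was at 0.70 in K562 and 1.34 in THP-1. CDKN1A, the inhibitor p21, had 825 and 386 counts in K562 (-1.12, -1.30 to -0.95) and 500 and 2308 in THP-1 (2.43, 2.29 to 2.57). KLF6 was also higher in THP-1 (1.08), and KLF2, a quiescence factor of T cells, was lower there (-1.19).

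Of 7 FOXO-linked cell death genes, 6 passed in each line, with 1 higher and 1 lower in K562 and none past 2-fold in THP-1. BCL2L11, which encodes the BH3 protein BIM, had 840 and 2049 counts in K562 (log2 ratio 1.26) and 1452 and 1789 in THP-1 (0.52). TRADD, an adaptor of TNF receptors, was at -1.31 in K562 and -0.30 in THP-1. PMAIP1, which encodes NOXA, was at -0.70 and 0.78. BBC3, which encodes PUMA, was at -0.42 and -0.03, BNIP3 at 0.34 and -0.24, TNFSF10 at -0.03 and -0.02, and FASLG had no counts.

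Of 11 FOXO-linked genes of autophagy and protein turnover, 9 passed in K562 with 2 at least 2-fold higher, GABARAPL1 at 1.26 and ATG14 at 1.22. In THP-1, 10 passed and 1 was at least 2-fold higher, the muscle atrophy ligase FBXO32, with 65 and 233 counts (log2 ratio 2.07) against 77 and 44 in K562 (-0.83). None was 2-fold lower in either line. In the metabolism and antioxidant list PDK4 was the one gene at least 2-fold higher in THP-1, where the median of 6 genes was -0.29, and 2 of 8 genes were higher in K562, with a median of 0.58. The other in K562 was PCK1, the gluconeogenic enzyme, with 3 and 139 counts, which passed the filter only through the treated library. SCO2 was lower in K562 (-1.27).

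Of the 7 receptor and immune genes linked to FOXO, 4 passed in each line. RICTOR, the mTORC2 subunit, had log2 ratios of 1.07 in K562 and 0.85 in THP-1. INSR, the insulin receptor, was lower in K562, with 121 and 59 counts (-1.06), and higher in THP-1, with 2583 and 3056 (0.47). IGF1R was at -0.21 and -1.80, ERBB3 at 0.70 in K562, and IL7R at -0.66 in THP-1. ERBB3 in THP-1, IL7R in K562, and S1PR1 in both had at most 7 counts in a library.

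FOXO factors are also known to lower D-type cyclins. CCND1 had 1365 and 186 counts in K562, 7.47-fold lower with periplocin (log2 ratio -2.90), and 76 and 99 in THP-1 (0.61). CCND2 was at -0.76 in K562 and had 24 and 12 counts in THP-1. The mitotic genes PLK1 and CCNB1 were higher with periplocin in both lines, at 1.87 and 1.56 in K562, against 0.44 and 0.42 in THP-1.

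In the PI3K-Akt-mTOR core, 27 of 29 genes passed in K562, with 4 at least 2-fold higher and 3 lower, and 28 passed in THP-1, with 2 higher and 1 lower. The medians were -0.21 and 0.05. SGK1, an Akt-related kinase that also phosphorylates FOXO3, was higher in both lines, with 172 and 381 counts in K562 (log2 ratio 1.12, 0.86 to 1.39) and 31 and 166 in THP-1 (2.65, 2.08 to 3.25). The regulatory subunit genes PIK3R3 and PIK3R2 were at 1.80 and 1.25 in K562, against -0.04 and -0.48 in THP-1. EIF4EBP1, the mTORC1 substrate, and SGK3 were lower in K562, at -1.77 and -1.55, and at -0.16 and -0.46 in THP-1.

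Among 15 brakes on the pathway, 1 was at least 2-fold higher and 2 were lower of 13 in K562, and 0 were higher and 1 was lower of 15 in THP-1. TSC1, part of the complex that restrains mTORC1, had a log2 ratio of 1.41 in K562 and 0.29 in THP-1. TRIB3 and DDIT4, stress genes that restrain Akt and mTORC1, were lower in K562, with 6499 and 1465 counts (-2.18) and 8581 and 2059 counts (-2.09), and stood at 0.21 and -0.01 in THP-1. DEPTOR was lower in THP-1 (-1.56). Of 23 regulators and cofactors of FOXO proteins, 22 passed in each line. None of these was past 2-fold in K562, and in THP-1 STK4, the kinase MST1 that activates FOXO proteins, was higher (1.10) and PRMT1 lower (-1.11).

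Of 24 p53 targets, 20 passed in K562, with 3 at least 2-fold higher and 4 lower and a median of -0.37, and 23 passed in THP-1, with 6 higher and 2 lower and a median of 0.36. BTG2, an antiproliferative factor, was higher in both, at 1.12 in K562 and 1.90 in THP-1. TNFRSF10B, the TRAIL receptor DR5, had 1463 and 373 counts in K562 and 873 and 1588 in THP-1 (1.09). AEN, an apoptotic nuclease, was at -0.29 and -1.31. The others past 2-fold in K562 were CCNG1 (1.07) and TP53I3 (1.04), both higher, and CDKN1A, SESN2 and PLK3 (-1.06), lower. FDXR was lower in THP-1 (-1.82), and CDKN1A, TIGAR and ZMAT3 were higher.

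**Figure D5:**
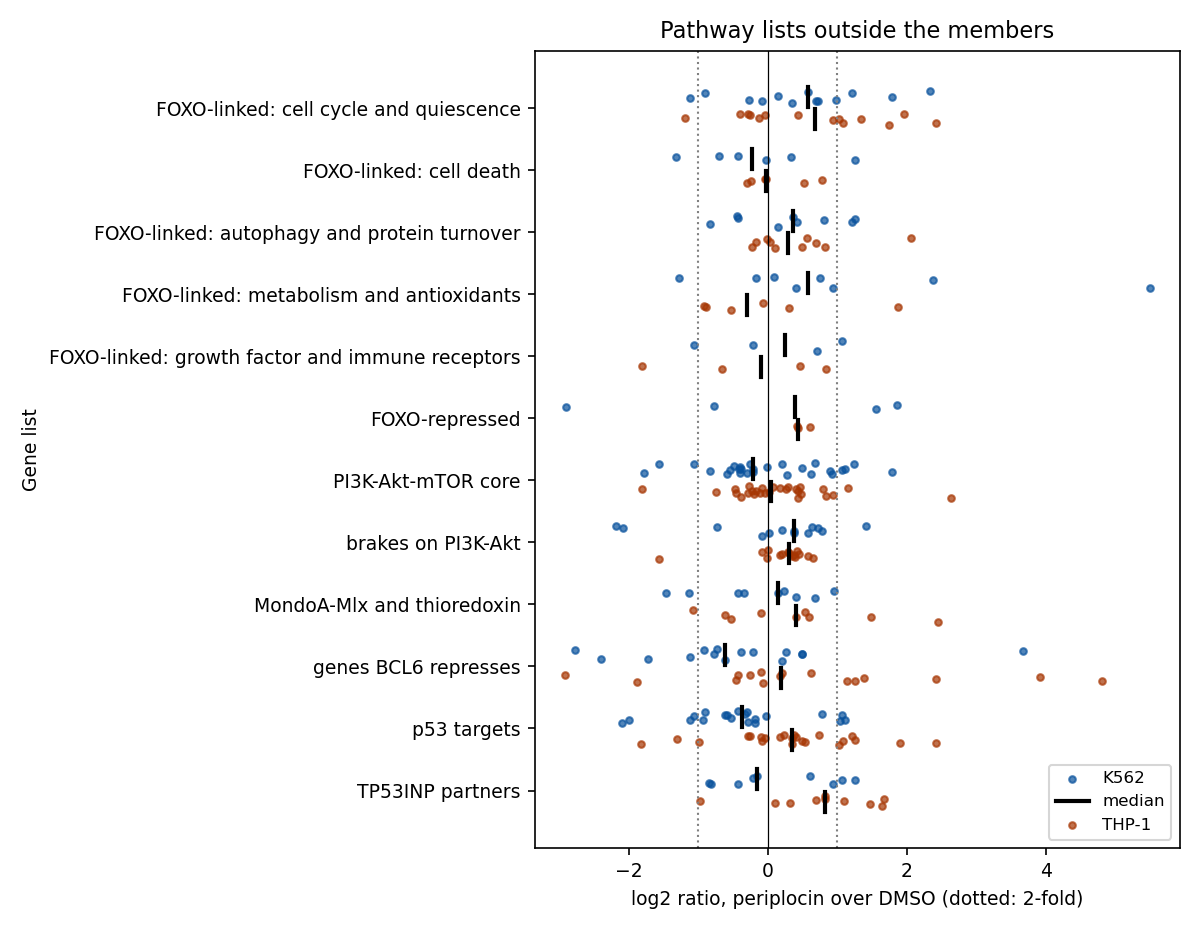
Log2 ratio of periplocin over DMSO for each gene past the filter, by list, in K562 (blue) and THP-1 (brown), with black ticks at the list medians and dotted lines at 2-fold. The quiescence list has medians of 0.58 and 0.69, the genes that BCL6 represses have -0.61 and 0.20, and most lists spread over both sides of 0.

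In the untreated cultures, 6 of the 10 genes were higher in K562 than in THP-1 beyond counting error, FOXO1, FOXO3, FOXO4, BCL6, TP53INP1 and TXNIP, and IRS2 and SESN3 were higher in THP-1. BCL6 was 4.12-fold and FOXO4 3.04-fold higher in untreated K562, and IRS2 1.78-fold higher in untreated THP-1. In bulk RNA, more cells of a type and more RNA per cell cannot be told apart, here as for every ratio above.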

How the data were processed

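Poly-A RNA from 4 cultures was sequenced as paired-end reads, 1 library per condition. The authors deposited 1 table of expected counts per gene, neither normalized nor pooled, in which 87.4% to 88.3% of values are whole. The submitters' processing notes name HISAT2, StringTie 1.3.1 and hg38, and the counting program, annotation and strand setting are not given in the sources used here. The treatment (DMSO or periplocin), dose and time follow the study's methods, while the sample titles call the controls blank. The 10 genes and all gene lists were chosen with earlier results of these data known.

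Expected counts were rounded, and TMM factors over the 4 libraries (edgeR 4.0.16 in R 4.3.3) gave scaled CPM, which use all 20348 genes. Ratios of periplocin over DMSO were taken within each line, with exact conditional (Clopper-Pearson) 95% intervals from scipy 1.17.1, tested on simulated data. Differences between lines have normal-approximation intervals from the counts. All intervals cover counting error only, and estimated counts are not independent reads, so this is the least error the values can have. Counts up to 3 were taken as the floor. With 1 library per condition no count test was run and no p-value is given. A gene had to average 1 CPM or more over the pair, and 2-fold was the limit for counts of genes. Levels per kilobase use the principal coding transcript of GENCODE release 29 on GRCh38, which also gave positions. Of 230 list symbols 229 were in the table, the other being an older name of SELENOP. No column of the table was left unused. Promoters came from RefSeq (GRCh38.p14).

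Genes named are the 10, every gene of a list of 8 or fewer and of the paralogs, up to 4 genes per line of a longer list that were past 2-fold and averaged 5 CPM or more, in order of size, and the 3 genes nearest in pattern to BCL6 and TXNIP among those averaging 10 CPM or more over the 4 libraries. FOXO3B, MLXIP and the list or marker genes named with small counts of genes (such as KLF2, PCK1, SOCS2, FDXR and PECAM1) are not covered by it and were picked with their values in view. A few list genes that the rule names are not reported here. Alternatives were DESeq2 1.42.0 size factors, TMM within each pair, library totals, other filters and fold limits, a prior count of 2, unrounded counts, totals without mitochondrially encoded genes, and, chosen after seeing the data, FOXO3 and FOXO3B summed.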

Additional observations from a re-analysis of the deposited data

Results flagged for a closer look

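These genes had ratios of opposite direction in K562 and THP-1, each with a counting interval off 0. With 1 library per condition the difference between lines was not tested, and the cause was not tested. The log2 response in THP-1 minus that in K562 was 2.31 for TXNIP and 0.78 for IRS2 among the 10 genes. Among list genes at least 2-fold in each line it was 2.94 for ARRDC4, the TXNIP paralog, 3.55 for CDKN1A, which encodes p21, 3.08 for TNFRSF10B, the death receptor DR5, and 2.85 for CD44, the hyaluronan receptor. All 6 were lower with periplocin in K562 and higher in THP-1. CD44 rests on 29 and 9 counts in K562, where it passed the filter only through the untreated library, against 5864 and 11058 in THP-1. SESN3 also had ratios of opposite sign, but its K562 interval included 0. Summed K562 marker levels differed between the K562 libraries, at 3030 and 11259 CPM. The monocytic markers of THP-1 summed to 2800 and 2619 CPM in the THP-1 libraries. That sum hides moves in both directions, since 3 of the 12 were at least 2-fold higher with periplocin and 2 at least 2-fold lower.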

How the results depend on the processing

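No paired analysis was possible because there is 1 library per condition, and for the same reason no replicate could be left out. No log2 ratio of the 10 genes, and no difference in their response between lines, had a counting interval off 0 and changed direction under the alternatives run for it. The median of all genes, which is near 0, turned from -0.01 to 0.000119 in K562 under library totals and from -0.03 to 0.00648 in THP-1 under DESeq2 size factors. Among list genes past the filter, K562 had 146 and THP-1 had 144 with an interval off 0, and 0 of these changed sign under 8 alternatives, although a prior count moved PCK1 in K562 by 0.711 and CD80 in THP-1 by 0.544. ATG14, BBC3, DDIT4 and TNFSF10, all near 0 in THP-1, changed sign there under DESeq2 size factors. Over the other scalings, unrounded counts, a prior count and totals without mitochondrially encoded genes, no log2 ratio of the 10 genes ranged over more than 0.069, with TXNIP in THP-1 at 1.40 under DESeq2 size factors, and the median of all genes moved by at most 0.038. Summing FOXO3 and FOXO3B, chosen after seeing the data, gave 0.21 in K562 and 0.80 in THP-1. The fold limit set the counts, by construction. At 1.5-fold and 3-fold, all genes higher numbered 2251 and 422 in K562, against 2123 and 458 in THP-1, and all genes lower numbered 2592 and 581 in K562, against 2659 and 480 in THP-1. List genes higher numbered 40 and 7 in K562, against 46 and 12 in THP-1, and list genes lower 35 and 10 in K562, against 20 and 5 in THP-1. Of the 10 genes, 2 were at least 3-fold higher in K562, and in THP-1 8 were at least 1.5-fold and 3 at least 3-fold higher. TXNIP was the 1 gene at least 1.5-fold lower in K562. With a mean of at least 5 CPM, fewer genes were counted, and 641 were 2-fold higher and 875 lower in THP-1. List genes at least 2-fold higher then numbered 19 in K562 and 21 in THP-1, and list genes lower 15 and 7. Depth limits PIK3IP1 and SESN3 in K562, whose intervals include 0, and the spread between cultures is unknown for every value.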
